A study of Mus musculus with 40 samples.

Results

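Ion channels set the membrane potential of brown adipocytes and of the vessel and nerve cells between them. The 9 genes described here were 3 subunits of hyperpolarization-activated, cyclic nucleotide-gated (HCN) channels (*Hcn2*, *Hcn3* and *Hcn4*), 4 subunits of ATP-sensitive potassium (KATP) channels (*Kcnj11*, *Kcnj8*, *Abcc8* and *Abcc9*), the background potassium channel *Kcnk3* and the auxiliary calcium channel subunit *Cacng5*. They were taken by symbol from the 20295 genes of the count table, and 8 of the 9 passed the expression filter that left 13277 genes. Of these, 3 carried the choice: *Hcn2* for its larger response to the C-3BO genotype on high-fat diet (HFD), *Abcc8* for its rise under both treatments and *Cacng5* for its rise in C-3BO mice. Those responses are therefore given as values without a test.

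Brown adipose tissue (BAT) came from 40 male mice housed at 29 °C, in 8 groups of 5. In 4 groups, C-3BO mice, in which a *Gpr3* TTG allele is switched on by *Ucp1*-Cre, were compared with control littermates on chow or after 7 days of HFD with 60 kcal% fat, at 13 to 19 weeks of age. The TTG allele is a *Gpr3* transgene under a CAG promoter at the ROSA26 locus of C57BL/6NTac mice. Controls had 1 copy of it without Cre, or Cre without it, and the labels do not say which mouse had which. *Ucp1*-Cre is not timed and acts in beige as well as brown adipocytes. In the other 4 groups, mice 15 weeks of age, littermate controls from the tamoxifen-inducible *Ucp1*-CreERT2 line I-3BO, were injected with the selective β3-adrenergic agonist abbreviated CL in the sample titles, at 1 mg/kg, or with saline at 10 µL/g, daily for 9 days, on chow or with HFD for the last 7 days. The labels call these mice wildtype, and their tissue was taken the day after the last injection. GPR3 and the β3-adrenergic receptor both couple to Gs and raise cAMP, and the comparisons ask what either route does to the tissue on each diet.

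Library totals lay between 849126 and 15260516 counts, and the lowest total was that of HFD saline replicate 4. The 12 libraries of lowest total had 62.2 to 294 CPM (read counts relative to library size) of the liver transcript *Alb*, against at most 1.62 CPM in the other 28. Besides replicates 4 and 5 of HFD C-3BO, these 12 are the 10 mice that were injected and fed HFD, so diet and library type cannot be told apart there. *Gpr3* was at 266 to 463 CPM in chow C-3BO and 688 to 918 CPM in HFD C-3BO mice, and at 9.15 CPM or less in all other groups, where the 9.15 CPM were those of chow CL replicate 3. The sum of 8 brown adipocyte markers, among them *Ucp1* and *Cidea*, was 5949 CPM or more in every library.

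HCN channels open when the membrane hyperpolarizes and pass a mixed inward sodium and potassium current. In HCN2 and HCN4, binding of cAMP to the cytoplasmic domain eases opening. HCN channels are best known for pacemaking in heart and neurons. KATP channels join a pore, Kir6.2 from *Kcnj11* or Kir6.1 from *Kcnj8*, to a sulfonylurea receptor, SUR1 from *Abcc8* or SUR2 from *Abcc9*. They close when cellular ATP is high. SUR1 with Kir6.2 couples glucose to insulin release in pancreatic β-cells, while SUR2 with Kir6.1 is found in vascular smooth muscle and pericytes.

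The 250 bases before the listed start of the members were read from the mm9 genome, and 7 of the 9 listed starts were also transcript starts in GENCODE vM1. The windows of *Hcn2*, *Abcc8* and *Cacng5* are printed here because these 3 members were chosen by their measured values. *Hcn2* lies on the plus strand of chromosome 10 from 79179379 to 79198853, and its window is chr10:79179129-79179378. *Abcc8* lies on the minus strand of chromosome 7 from 53359893 to 53435403, and its window is chr7:53435404-53435653. *Cacng5* lies on the minus strand of chromosome 11 from 107735919 to 107776369, and its window is chr11:107776370-107776619. Each is written 5′ to 3′ on the strand of its gene, and capitals mark the single motif match described next.
Hcn2: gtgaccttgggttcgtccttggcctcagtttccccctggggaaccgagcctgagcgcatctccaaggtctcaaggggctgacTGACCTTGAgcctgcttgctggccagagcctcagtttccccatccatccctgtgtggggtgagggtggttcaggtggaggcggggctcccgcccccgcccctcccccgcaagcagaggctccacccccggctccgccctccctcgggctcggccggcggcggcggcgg
Abcc8: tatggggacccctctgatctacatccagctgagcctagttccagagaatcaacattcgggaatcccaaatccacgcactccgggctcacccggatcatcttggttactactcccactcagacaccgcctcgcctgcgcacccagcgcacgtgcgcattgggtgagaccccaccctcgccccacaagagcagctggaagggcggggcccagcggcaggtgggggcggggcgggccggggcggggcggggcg
Cacng5: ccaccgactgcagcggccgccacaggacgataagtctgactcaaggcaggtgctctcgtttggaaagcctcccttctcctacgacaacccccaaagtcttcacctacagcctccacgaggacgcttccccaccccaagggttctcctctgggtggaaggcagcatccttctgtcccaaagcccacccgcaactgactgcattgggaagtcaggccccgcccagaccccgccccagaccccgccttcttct

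The windows were searched on both strands for the cAMP response element TGACGTCA and its core TGACG, which is part of it, for the estrogen-related receptor element TCAAGGTCA, and for the DR1 element, which is AGGTCA repeated after 1 base of any kind. Of the 20292 windows read for all genes, 2.14% held the cAMP response element, 21.2% its core, 0.306% the estrogen-related receptor element and 0.0542% the DR1 element. None of the 9 members held the cAMP response element, its core or the DR1 element. The estrogen-related receptor element was present in 1 of the 9, *Hcn2*, on the opposite strand 168 bases before the start, where the printed strand reads TGACCTTGA. The windows of all 9 members were richer in G and C than the median of 56.4% over all windows. They ranged from 62.0% to 79.6%, with *Hcn2* at 70.4%. These letters are a description of the sequence and not of a bound site.

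*Hcn2* was low in control BAT and reached its highest levels in C-3BO and CL mice on HFD. In chow control mice it was at 4.21, 5.57, 5.37, 4.03 and 4.39 CPM. In chow C-3BO mice it was at 9.04, 7.75, 5.14, 13.7 and 11.2 CPM, and 4 of these 5 mice lay above all chow controls. HFD control mice had 3.31, 2.58, 5.63, 3.84 and 4.17 CPM. HFD C-3BO mice had 82.1, 121, 79.3, 116 and 87.7 CPM, so the groups on HFD were far apart. The mean was 9.37 ± 3.27 CPM against 4.72 ± 0.706 CPM on chow and 97.2 ± 19.8 CPM against 3.91 ± 1.14 CPM on HFD (SD, n = 5). The log2 fold change of C-3BO over control was 1.00 (SE 0.27) on chow and 4.62 (SE 0.27) on HFD, a difference of 3.63 (SE 0.38). These values chose the gene and are not tested. Without HFD C-3BO replicates 4 and 5, which held liver transcripts, the fold change on HFD was 4.58 and the difference between diets 3.58 on the log2 scale.

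**Figure D1:**
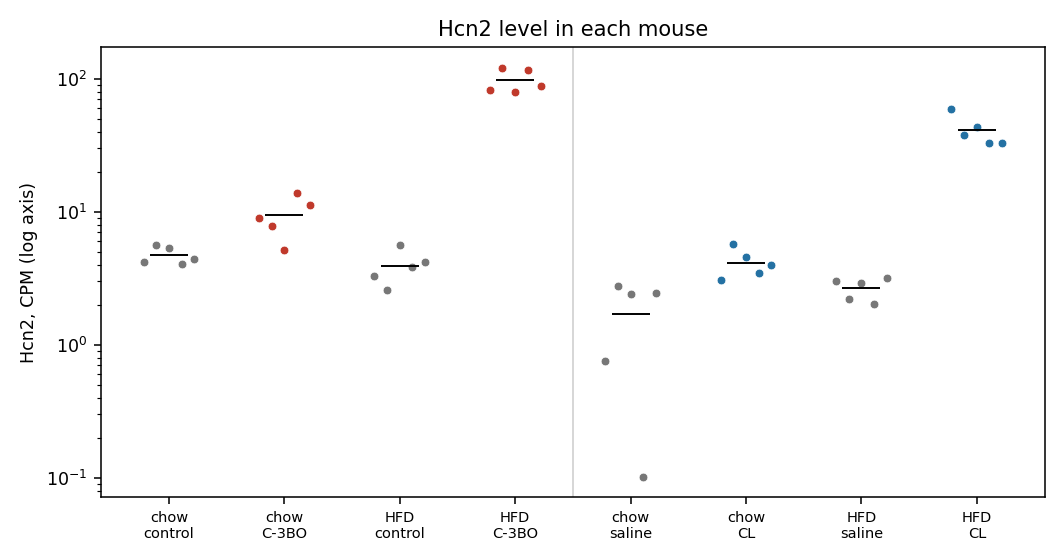
*Hcn2* level in CPM on a log axis for each of the 40 mice in the 8 groups. Each point is 1 mouse and the black bars are group means. The 5 HFD C-3BO mice (79.3 to 121 CPM) and the 5 HFD CL mice (32.9 to 59.4 CPM) stand above every mouse of the other 6 groups, whose highest value is 13.7 CPM.

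The CL mice, whose values were not the stated ground for choosing *Hcn2*, also differed by diet. The members were chosen with earlier results of these data known, so the CL tests below may not be independent of the choice. Chow saline mice had 0.756, 2.78, 2.41, 0.101 and 2.47 CPM, where replicate 4 held 1 count. Chow CL mice had 3.05, 5.69, 4.53, 3.46 and 3.97 CPM, all above the saline mice. HFD saline mice had 3.03, 2.20, 2.91, 2.01 and 3.18 CPM. HFD CL mice had 59.4, 37.7, 43.6, 33.0 and 32.9 CPM, again with no overlap.

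The log2 fold change of CL over saline for *Hcn2* was 1.24 (SE 0.33) on chow (edgeR adjusted p = 0.00836) and 3.88 (SE 0.31) on HFD (edgeR adjusted p = 5.42e-11). Of the 6 members tested in these comparisons, *Hcn2* and *Kcnj11* were called on chow, where 15.3% of all tested genes were called, and *Hcn2* on HFD, where 23.5% were called. The CL effect on *Hcn2* was larger on HFD by 2.64 (SE 0.47) on the log2 scale (edgeR adjusted p = 0.0120). This interaction was called for 2 of 13277 genes, or 0.0151%, the other being the histone gene *Hist1h2be*, while 1250 genes had an unadjusted p under 0.05 and DESeq2 called 36. It was just missed when chow saline replicate 2 (2.45, edgeR adjusted p = 0.0523) or replicate 3 (2.50, edgeR adjusted p = 0.0518) was left out, and in the fit with replicate number as a block (2.58, edgeR adjusted p = 0.0506). Without chow CL replicate 3, the mouse with 9.15 CPM of *Gpr3*, the CL effect on chow was 1.20 (edgeR adjusted p = 0.0191). That call was lost when the fit held only the libraries of that comparison (1.24, edgeR adjusted p = 0.103).

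An effect of HFD alone on *Hcn2* was not detected in saline mice. In saline mice the HFD effect was 0.69 (SE 0.38) on the log2 scale (edgeR adjusted p = 0.233), with a 95% interval from -0.06 to 1.44. In CL mice it was 3.33 (SE 0.27) (edgeR adjusted p = 4.78e-11), a 9.98-fold ratio of means in libraries that also differed by type, with 41.3 ± 11.002 and 4.14 ± 1.03 CPM (SD, n = 5). The untested value in control mice was -0.25 (SE 0.29) and that in C-3BO mice 3.37 (SE 0.25). From highest to lowest, the group means ran from HFD C-3BO through HFD CL, chow C-3BO, chow control, chow CL, HFD control and HFD saline to chow saline. HFD C-3BO did not overlap HFD CL, HFD CL did not overlap chow C-3BO, and each later pair of neighbours overlapped.

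Several other quantities were measured in the same mice, and their part in the *Hcn2* result was not tested. In C-3BO mice *Gpr3* was itself higher on HFD than on chow. In HFD CL mice *Gpr3* was at 1.18 CPM or less. Summed brown adipocyte markers were 6102 to 7939 CPM in chow control, 11361 to 14855 CPM in chow C-3BO, 6911 to 15816 CPM in HFD control and 18980 to 21839 CPM in HFD C-3BO mice. In saline and CL mice they were 5949 to 8696 and 6916 to 14507 CPM on chow and 6916 to 9076 and 13541 to 17076 CPM on HFD. Much of the difference in these sums between control and C-3BO mice was *Ucp1*, the uncoupling protein of brown fat. Its means were 1239 and 6432 CPM in chow control and C-3BO mice and 4903 and 14019 CPM on HFD. Of the 8 markers, 5 were called higher and 1 lower for C-3BO on chow, 3 higher and 0 lower on HFD, 1 higher and 1 lower for CL on chow, and 3 higher and 0 lower on HFD. The median log2 fold changes of the list were 0.50, 0.27, 0.18 and 0.13 in that order, and the marker called lower on chow with either treatment was *Adipoq*, the gene of the adipocyte hormone adiponectin. In bulk tissue, a change in the number of cells of a type and a change in RNA per cell cannot be told apart. Summed markers of nerve and Schwann cells, also present in BAT, had overlapping ranges between treated and untreated mice on both diets. On chow the sums were 28.3 to 51.2 CPM in control and 15.4 to 31.3 CPM in C-3BO mice. In saline and CL mice they were 33.0 to 70.3 and 37.3 to 52.7 CPM on chow. For C-3BO on chow 1 marker was called lower and 0 higher. On HFD the sums were 22.8 to 57.3 CPM in control, 20.2 to 74.1 CPM in C-3BO, 23.1 to 87.8 CPM in saline and 17.7 to 96.9 CPM in CL mice. *Dbh* was at 0 in all libraries of these 4 groups, *Th* in those of control and C-3BO, and *Snap25* in those of control, saline and CL.

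The genes next to *Hcn2* were also expressed. *Bsg*, which encodes basigin, ends 4654 bases before *Hcn2* on the same strand, and its log2 fold changes were 0.94 and 1.69 for C-3BO on chow and HFD and 1.01 and 1.59 for CL on chow and HFD, with edgeR adjusted p = 7.74e-06, 6.41e-11, 1.07e-05 and 1.13e-09. *Polrmt*, the mitochondrial RNA polymerase, ends 16 bases from the end of *Hcn2* on the opposite strand. It was at 47.0 to 96.8 CPM in group means. Its log2 fold changes were 0.76 and 0.61 for C-3BO on chow and HFD and 0.34 and 0.62 for CL on chow and HFD. In the same order, they had edgeR adjusted p = 5.77e-05, 0.000653, 0.0863 and 0.0014. Whether the counting used strand is not stated, so reads that run past either gene's end could be counted for the other.

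The other HCN genes stayed low in every group. *Hcn4*, the main pacemaker channel of the sinoatrial node, had group means between 0.282 and 1.04 CPM, and the highest single value, 3.01 CPM in HFD saline replicate 4, was 3 counts in the library of lowest total. None of its comparisons was called, with log2 fold changes of -1.02 (SE 0.62) and -1.27 (SE 0.67) for C-3BO on chow and HFD (edgeR adjusted p = 0.209 and 0.140). Without chow C-3BO replicate 4 the first became -2.04 (edgeR adjusted p = 0.0317). *Hcn3*, a slow HCN channel of brain and heart, had 1 to 13 counts per group and failed the expression filter. Its largest differences, 0.0239 against 0.234 CPM for C-3BO on chow and 0.404 against 0.143 CPM for CL on HFD, both had an adjusted p = 0.190 over 8 comparisons (exact permutation test, two-sided).

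*Abcc8*, the sulfonylurea receptor SUR1, was a minor transcript that rose under both treatments. Chow control mice had 3.55, 3.14, 7.61, 3.47 and 2.66 CPM, and replicate 3 stood apart. Chow C-3BO mice had 7.53, 5.21, 7.52, 5.09 and 6.44 CPM, above the other 4 controls but not above replicate 3. HFD control mice had 1.94, 1.78, 2.20, 2.59 and 2.03 CPM. HFD C-3BO mice had 6.12, 4.40, 3.30, 5.30 and 4.92 CPM, all higher than the controls on HFD. In the injected mice, chow saline had 2.81, 2.45, 2.06, 1.52 and 1.87 CPM. Chow CL mice had 8.26, 10.8, 7.02, 6.49 and 5.09 CPM, with no overlap. HFD saline mice had 2.07, 0.315, 2.18, 1.00 and 0.794 CPM, and HFD CL mice had 3.70, 4.92, 2.04, 4.62 and 4.18 CPM, of which 4 of 5 lay above all HFD saline mice.

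The treatment responses that chose *Abcc8* were log2 fold changes of 0.64 (SE 0.27) and 1.17 (SE 0.29) for C-3BO on chow and HFD and 1.81 (SE 0.28) and 1.53 (SE 0.35) for CL on chow and HFD, given without a test. They differed between diets by 0.54 (SE 0.39) for C-3BO and by -0.28 (SE 0.46) for CL, also untested, and the second became 0.06 without HFD saline replicate 3. Its highest group mean was that of chow CL mice, 7.53 ± 2.15 CPM (SD, n = 5).

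*Abcc8* was chosen by its treatment effects and not by the diet contrasts. Those contrasts draw on the same libraries, so their p-values are not independent of the choice. HFD control mice were all below chow control mice, with means of 2.11 ± 0.308 and 4.09 ± 2.00 CPM (SD, n = 5) and a log2 fold change of -0.94 (SE 0.28, edgeR adjusted p = 0.00910). Without chow control replicate 3, this value was -0.61 (edgeR adjusted p = 0.0923). HFD CL mice were all below chow CL mice, with -0.91 (SE 0.28, edgeR adjusted p = 0.0152), and -0.76 (edgeR adjusted p = 0.0605) without chow CL replicate 2. The values in C-3BO and saline mice were -0.41 (SE 0.28, edgeR adjusted p = 0.300) and -0.64 (SE 0.35, edgeR adjusted p = 0.219).

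*Kcnj11*, which encodes the Kir6.2 pore, lies on the same strand of chromosome 7 from 53352493 to 53356134, next to *Abcc8*. Chow saline mice had 14.8, 22.2, 15.4, 13.8 and 10.97 CPM and chow CL mice 43.0, 36.9, 20.8, 25.7 and 24.4 CPM. With CL, 4 of 5 mice exceeded each saline mouse, and the log2 fold change was 0.97 (SE 0.22, edgeR adjusted p = 0.00225). On HFD, saline mice had 17.1, 19.05, 23.8, 9.02 and 16.8 CPM and CL mice 33.0, 29.4, 30.8, 18.2 and 19.98 CPM. That difference was 0.51 (SE 0.24, edgeR adjusted p = 0.114) and reached 0.59 (edgeR adjusted p = 0.0248) with replicate number as a block. The CL effects on the 2 diets differed by -0.45 (SE 0.32, edgeR adjusted p = 0.689).

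For C-3BO, a difference in *Kcnj11* was not called on either diet. Chow control mice had 26.4, 34.0, 66.5, 42.2 and 37.4 CPM and chow C-3BO mice 27.6, 31.7, 31.2, 29.004 and 45.5 CPM. HFD control mice had 22.3, 18.1, 28.3, 22.3 and 26.7 CPM and HFD C-3BO mice 32.6, 23.1, 25.4, 37.5 and 35.8 CPM. The groups overlapped on both diets, with log2 fold changes of -0.32 (SE 0.21, edgeR adjusted p = 0.255) and 0.38 (SE 0.22, edgeR adjusted p = 0.175). The 95% intervals ran from -0.74 to 0.10 on chow and from -0.05 to 0.81 on HFD. The effects on chow and HFD differed by 0.71 (SE 0.31, edgeR adjusted p = 0.248), with a 95% interval from 0.11 to 1.30. No member tested in the C-3BO comparisons was called, of 5 on either diet, where 31.6% and 34.8% of all tested genes were called on chow and HFD, and none of the 5 was called for a difference between diets, where 2.09% were.

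HFD lowered *Kcnj11* in control mice by 0.81 (SE 0.21) on the log2 scale (edgeR adjusted p = 0.00323), and by 0.57 (edgeR adjusted p = 0.0338) without chow control replicate 3. The values in C-3BO, saline and CL mice were -0.10, 0.25 and -0.20 (edgeR adjusted p = 0.776, 0.511 and 0.550). Kir6.2 is also the KATP pore of skeletal muscle, and muscle transcripts moved with diet in these mice. The sum of 10 skeletal muscle markers was 745 to 9413 CPM in chow control and 35.6 to 232 CPM in HFD control mice, none of the 10 was at 0 in all libraries of a group, and chow control replicate 3, which had the most *Kcnj11* and the most *Abcc8*, had the 9413 CPM. The part of muscle in this difference was not tested. In C-3BO mice the sum was 417 to 3558 CPM on chow and 50.9 to 105 CPM on HFD. On chow it was 43.9 to 2420 CPM in saline and 47.1 to 175 CPM in CL mice, with overlapping ranges. In that comparison 8 of the 10 markers were called lower with CL and 0 higher, with a median log2 fold change of -3.99.

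**Figure D2:**
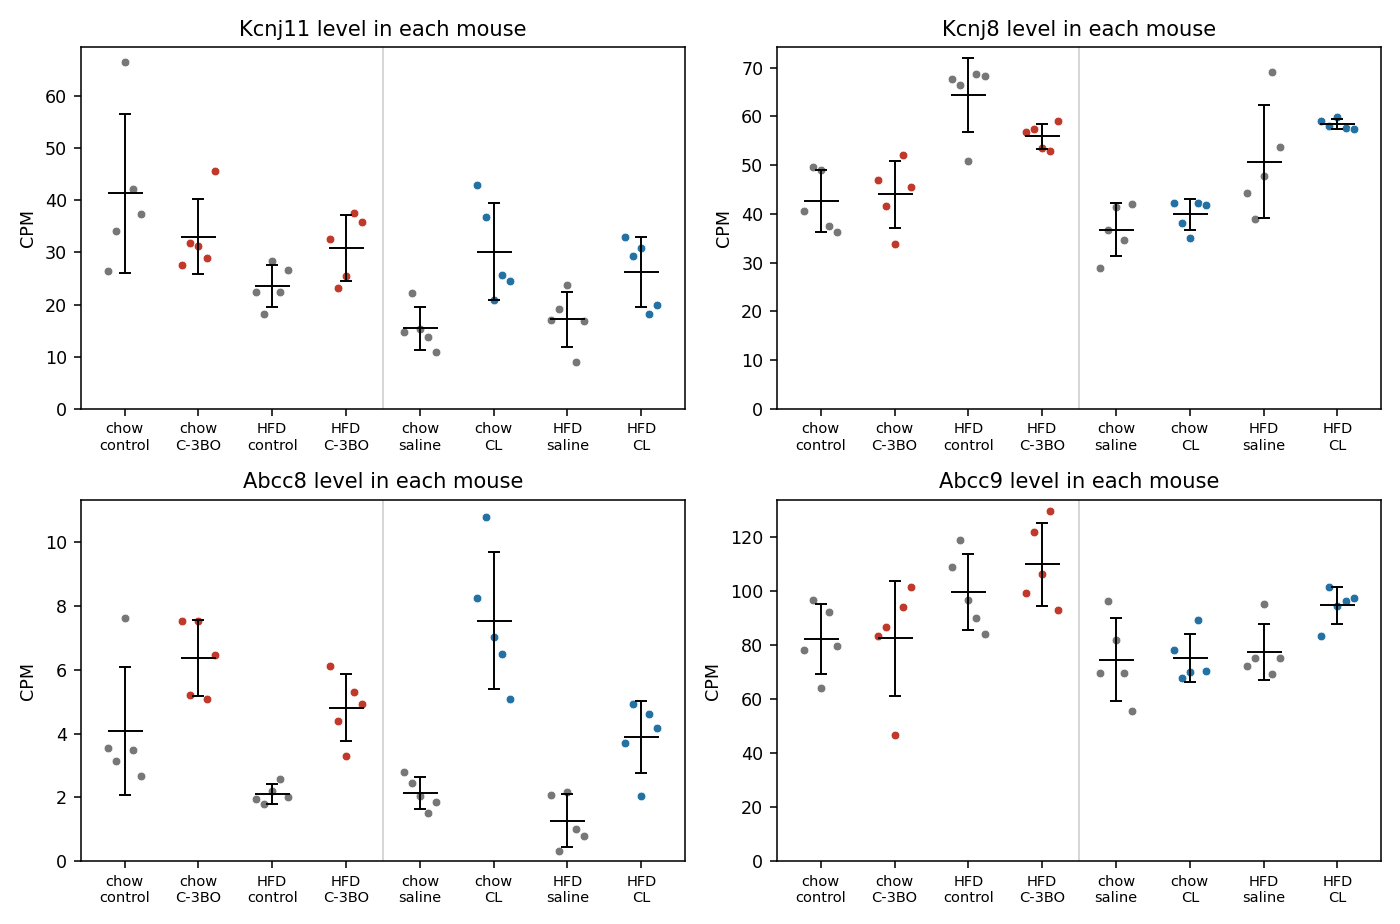
Levels in CPM of the KATP pores *Kcnj11* and *Kcnj8* (top) and the sulfonylurea receptors *Abcc8* and *Abcc9* (bottom) for each mouse. Points are mice, long bars group means and error bars SD (n = 5). Mean *Kcnj8* is higher on HFD than on chow in each pair of groups. Mean *Abcc8* is higher in C-3BO and CL mice than in their controls on the same diet, and these values chose the gene. Single mice overlap in *Abcc8* for C-3BO on chow and for CL on HFD.

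*Kcnj8*, the Kir6.1 pore, was higher on HFD in all 4 diet comparisons. It lies on the minus strand of chromosome 6 from 142513459 to 142519876, next to *Abcc9*. Chow control mice had 40.6, 49.5, 49.0, 37.4 and 36.2 CPM and HFD control mice 67.6, 66.5, 50.9, 68.7 and 68.3 CPM, without overlap, a log2 fold change of 0.60 (SE 0.12, edgeR adjusted p = 0.000104). Chow CL mice had 42.3, 38.2, 35.1, 42.3 and 41.8 CPM and HFD CL mice 59.0, 58.0, 59.9, 57.6 and 57.4 CPM, again apart, with 0.55 (SE 0.12, edgeR adjusted p = 0.000751). The increase was 0.35 (SE 0.12, edgeR adjusted p = 0.0264) in C-3BO mice and 0.42 (SE 0.12, edgeR adjusted p = 0.0157) in saline mice. The C-3BO value was 0.35 (edgeR adjusted p = 0.0745) without HFD C-3BO replicates 4 and 5, and its call was also lost without chow C-3BO replicate 3 (0.24, edgeR adjusted p = 0.154) or without chow C-3BO replicate 2 or HFD C-3BO replicate 2, 4 or 5 alone. For *Kcnj8*, the saline value lost its call without chow saline replicate 1 (0.35, edgeR adjusted p = 0.0605), without HFD saline replicate 4 (0.33, edgeR adjusted p = 0.0543) or with only the libraries of that comparison (0.44, edgeR adjusted p = 0.0766).

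None of the treatment effects on *Kcnj8* was called, with log2 fold changes between -0.20 and 0.25. Scaling by library totals alone gave -0.37 (edgeR adjusted p = 0.0161) for C-3BO on HFD, and leaving out HFD saline replicate 4 gave 0.35 (edgeR adjusted p = 0.0314) for CL on HFD. Markers of the vessel wall also differed between diets. The sum of 8 endothelial markers was 901 to 1295 CPM in chow control and 1751 to 2281 CPM in HFD control mice, that of 8 pericyte markers 676 to 950 and 924 to 1142 CPM, and that of 6 smooth muscle markers 157 to 198 and 268 to 311 CPM, with no marker at 0 in a whole group. In CL mice the endothelial sum was 994 to 1265 CPM on chow and 1597 to 2114 CPM on HFD, the pericyte sum 613 to 732 and 781 to 878 CPM, and the smooth muscle sum 156 to 234 and 186 to 271 CPM, the last with overlapping ranges. In these mice 7 of the 8 endothelial, 3 of the 8 pericyte and 1 of the 6 smooth muscle markers were called higher on HFD and 0 lower. Their part in the rise of *Kcnj8* was not tested.

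*Abcc9*, the sulfonylurea receptor SUR2 on chromosome 6 from 142536382 to 142650794, was the steadiest of the KATP genes. Its group means lay between 74.6 and 110 CPM. Each group overlapped the next in order, as it also did for the other KATP genes. None of the treatment effects was called, with values from 0.00 to 0.28 on the log2 scale. Of its 4 diet effects 1 was called, in C-3BO mice, by 0.41 (SE 0.15, edgeR adjusted p = 0.0324), from 83.3, 86.7, 46.7, 94.1 and 102 CPM to 99.1, 122, 106, 130 and 93.0 CPM. That call was lost without HFD C-3BO replicates 4 and 5 (0.40, edgeR adjusted p = 0.0889), without chow C-3BO replicate 3, which had the 46.7 CPM (0.24, edgeR adjusted p = 0.184), and without chow C-3BO replicate 1 or HFD C-3BO replicate 2 or 4. It was also lost with no filter (edgeR adjusted p = 0.0541), with at least 10 counts in every library (edgeR adjusted p = 0.0506) and with only the libraries of the comparison (edgeR adjusted p = 0.115). In control, saline and CL mice the values were 0.28, 0.07 and 0.33 (edgeR adjusted p = 0.139, 0.818 and 0.0960). Library totals alone gave calls of 0.44 in control mice (edgeR adjusted p = 0.0295) and 0.50 in CL mice (edgeR adjusted p = 0.0191), and the libraries of the comparison alone gave 0.35 in CL mice (edgeR adjusted p = 0.00904). A difference of the diet effects between genotypes was called for none of the members tested for it. *Hcn2*, *Abcc8* and *Cacng5* were not tested for it, and the untested *Hcn2* value was 3.63 (SE 0.38).

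Dividing counts by exon length allowed the subunits to be compared with each other. SUR2 transcripts exceeded SUR1 transcripts throughout, and *Abcc8* made up 7.13%, 10.96%, 3.11% and 6.15% of both in chow control, chow C-3BO, HFD control and HFD C-3BO mice. In chow saline, chow CL, HFD saline and HFD CL mice its share was 4.16%, 12.8%, 2.58% and 5.74%, values without a test because *Abcc8* was chosen by its response. The 2 pores were closer to parity. *Kcnj11* made up 43.5 ± 7.77% of both in chow control and 23.3 ± 4.99% in HFD control mice (SD, n = 5). The log2 ratio of *Kcnj11* to *Kcnj8* was lower by 1.36 on HFD, with no overlap and an adjusted p = 0.0317 over 8 comparisons (exact permutation test, two-sided, with 0.00794 the smallest p that 5 against 5 mice allow). CL mice went from 37.6 ± 6.61% on chow to 26.7 ± 4.89% on HFD (SD, n = 5), a log2 ratio lower by 0.74, with the same adjusted p = 0.0317 (exact permutation test). Leaving out any 1 library of the CL comparison raised this adjusted p to 0.0635, and leaving out any 1 of the control comparison except HFD control replicate 3 did the same. The groups stayed apart each time, and 4 against 5 mice allow fewer regroupings. The other 6 comparisons had an adjusted p of 0.0635 or more, among them CL on chow, where the share was 25.7 ± 5.96% with saline and 37.6 ± 6.61% with CL (exact permutation test, n = 5), and C-3BO on HFD, where it was 23.3 ± 4.99% in control and 31.0 ± 4.63% in C-3BO mice (exact permutation test, n = 5).

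**Figure D3:**
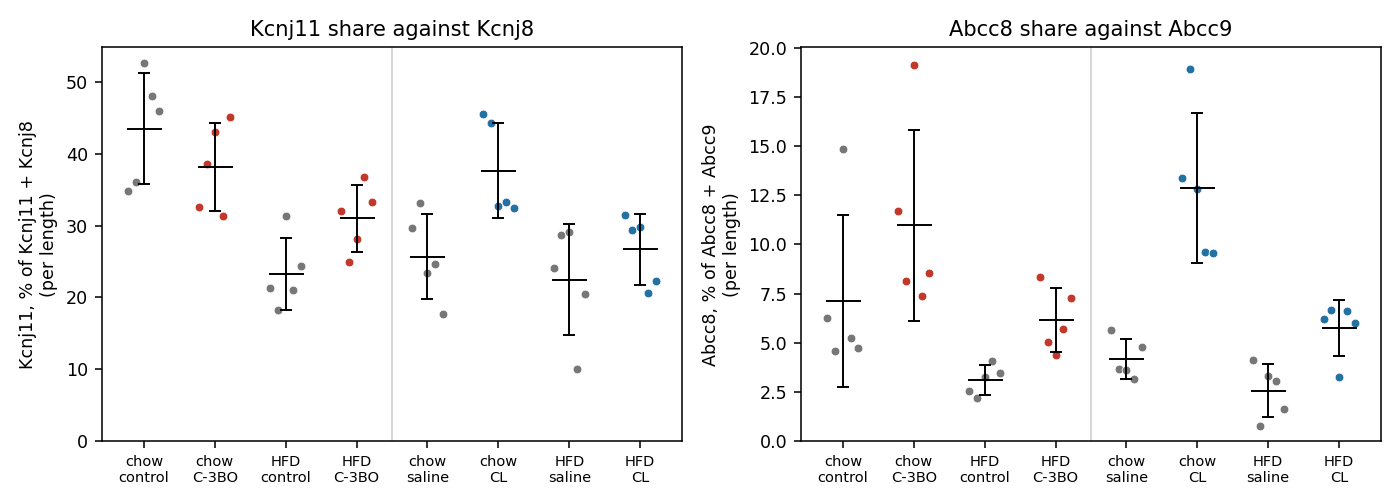
Share of *Kcnj11* in the 2 KATP pores (left) and of *Abcc8* in the 2 sulfonylurea receptors (right), in percent of counts per exon length. Points are mice, long bars means and error bars SD (n = 5). The pore share falls from 43.5% to 23.3% between chow and HFD control mice, and the receptor share is highest in chow CL mice at 12.8%.

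*Kcnk3*, the acid-sensitive two-pore-domain channel TASK-1, had the highest level per exon length among the members. In brown adipocytes this background potassium channel is known to oppose depolarization by adrenergic signals. Its level per exon length (RPKM) was 137 to 230 in group means, against 16.8 to 29.4 for *Kcnj8*, 10.4 to 15.3 for *Abcc9*, 5.78 to 15.5 for *Kcnj11* and 0.533 to 30.4 for *Hcn2*. The *Hcn2* mean in HFD C-3BO mice therefore exceeded each KATP subunit in the same mice, where *Kcnj8* was at 25.6, *Abcc9* at 15.3, *Kcnj11* at 11.6 and *Abcc8* at 0.971.

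None of the treatment effects on *Kcnk3* was called, with log2 fold changes of 0.24 and 0.19 for C-3BO and -0.18 and -0.12 for CL on chow and HFD (edgeR adjusted p from 0.157 to 0.558). The 95% intervals on chow ran from -0.01 to 0.50 for C-3BO and from -0.44 to 0.08 for CL. *Kcnk3* was lower on HFD in the injected mice, where diet and library type cannot be told apart. Chow saline mice had 773, 704, 641, 866 and 1141 CPM and HFD saline mice 504, 477, 469, 575 and 640 CPM, all lower, with a log2 fold change of -0.63 (SE 0.13, edgeR adjusted p = 0.00115). Chow CL mice had 790, 702, 766, 739 and 639 CPM and HFD CL mice 516, 495, 469, 483 and 486 CPM, also all lower, with -0.57 (SE 0.13, edgeR adjusted p = 0.00155). In C-3BO and control mice, whose libraries were not split by diet in the same way, the values were -0.35 (SE 0.13, edgeR adjusted p = 0.0489) and -0.29 (SE 0.13, edgeR adjusted p = 0.0868), and the first was -0.38 (edgeR adjusted p = 0.0955) without HFD C-3BO replicates 4 and 5 and -0.17 (edgeR adjusted p = 0.300) with library totals as the only scaling. The *Kcnk3* call in C-3BO mice was also lost without chow C-3BO replicate 1, 3 or 4 or HFD C-3BO replicate 1, 3 or 5, and that in control mice was made without chow control replicate 2 (-0.36, edgeR adjusted p = 0.0397).

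Over the diet comparisons, 3 of 6 tested members were called in control mice (*Abcc8*, *Kcnj11* and *Kcnj8*), where 32.9% of all tested genes were called, and 3 of 6 in C-3BO mice (*Kcnk3*, *Abcc9* and *Kcnj8*), where 25.7% were. In saline mice 2 of 7 were called (*Kcnk3* and *Kcnj8*) beside 15.5% of all tested genes, and in CL mice 4 of 7 (*Hcn2*, *Kcnk3*, *Abcc8* and *Kcnj8*) beside 23.6%. The *Abcc8* calls in control and CL mice rest on libraries that also chose the gene.

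**Figure D4:**
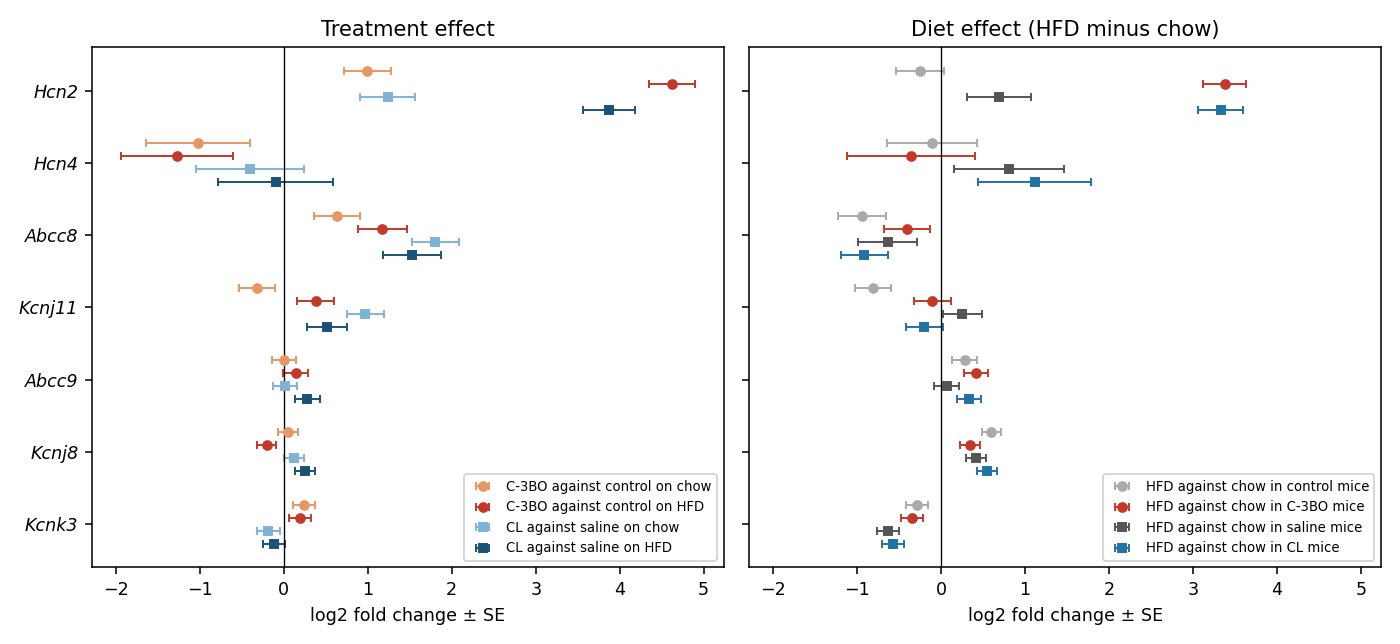
Log2 fold changes with standard errors for the treatments (left) and for HFD against chow (right). Shown are the 7 members other than *Cacng5* that passed the expression filter, of which *Hcn4* is limited by counts. The *Hcn2* values for C-3BO (4.62) and CL (3.88) on HFD lie far from those on chow (1.00 and 1.24), while *Abcc9*, *Kcnj8* and *Kcnk3* lie within 0.28 of 0 for each treatment. The treatment values of *Abcc8* and the genotype-cohort values of *Hcn2* chose these genes.

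*Cacng5* encodes γ5, a transmembrane protein of the calcium channel γ subunit family that also attaches to AMPA-type glutamate receptors in brain. It reached more than 1 count per library in HFD C-3BO mice alone among these 40 libraries, where 9, 23, 31, 6 and 7 counts gave 1.22, 2.60, 3.79, 1.22 and 1.43 CPM. The 5 HFD control mice had 0 counts, and the limit that a count of 0 allows, 3 counts, was 0.206 to 0.358 CPM in them. Chow control, chow saline and HFD saline mice also had 0 counts in all libraries, while chow C-3BO mice had 1 count in all, chow CL mice 3 counts and HFD CL mice 2 counts. The 6 and 7 counts were those of replicates 4 and 5, the libraries with liver transcripts. *Cacng5* passed the expression filter through HFD C-3BO alone, so it is given by its counts. Its level there per exon length, 0.545 ± 0.299 (SD, n = 5), was well below that of *Hcn2*, 30.4 ± 6.18 (SD, n = 5). In saline and CL mice its counts did not exceed 1 in any library.

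**Figure D5:**
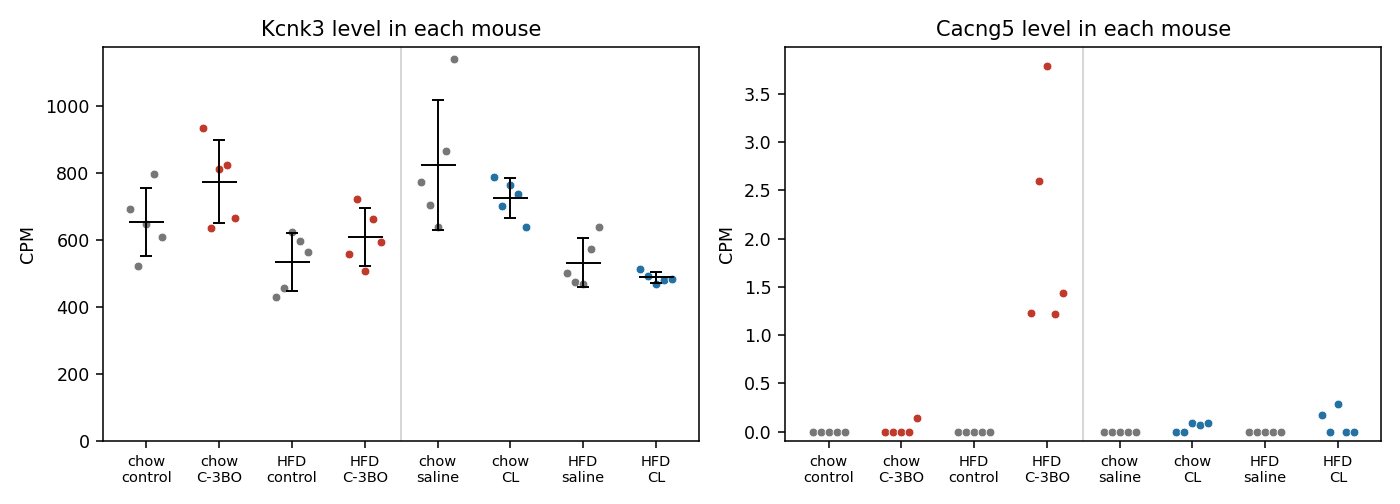
*Kcnk3* (left) and *Cacng5* (right) levels in CPM for each mouse. Points are mice, and the bars for *Kcnk3* are means with SD (n = 5). *Kcnk3* is at 431 to 1141 CPM in every mouse, whereas *Cacng5* exceeds 1 CPM in the 5 HFD C-3BO mice and no other.

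The list of other channel genes held 129 genes, of which 67 passed the expression filter. C-3BO raised 6 and lowered 15 of the 67 on chow and raised 7 and lowered 10 on HFD, or 31.3% and 25.4% called, beside 31.6% and 34.8% of all tested genes. CL raised 4 and lowered 7 on chow and raised 6 and lowered 4 on HFD, or 16.4% and 14.9% called, beside 15.3% and 23.5% of all tested genes. The median log2 fold change of the list was -0.32 and -0.24 for C-3BO and -0.15 and -0.15 for CL on chow and HFD, beside -0.03, -0.02, -0.01 and -0.01 over all tested genes.

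Of these genes, *Kcnk2* and *Kcnd2* were called higher in all 4 treatment comparisons. *Kcnk2*, the mechanosensitive two-pore channel TREK-1 and a relative of *Kcnk3*, went from 2.95 ± 0.299 to 14.8 ± 6.95 CPM with C-3BO on chow (SD, n = 5), and its log2 fold changes were 2.33 and 2.80 for C-3BO and 1.39 and 2.04 for CL on chow and HFD. *Kcnd2*, the A-type channel Kv4.2, rose by 4.15 and 3.69 for C-3BO and by 1.87 and 3.02 for CL. The edgeR adjusted p-values of both ranged up to 0.0148. *Kcna2*, the delayed rectifier Kv1.2, was lower in all 4, by -1.24, -1.34, -1.13 and -1.59, with edgeR adjusted p of 0.00143 or less. *Cacna1a*, the pore of P/Q-type calcium channels, was lower with C-3BO on both diets and with CL on HFD (-2.04, -1.71 and -1.79). *Kcnab3*, a potassium channel β subunit, was higher in all 4, with 0.64, 0.46, 0.63 and 0.97.

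Among the relatives of *Cacng5*, *Cacng1*, *Cacng6* and *Cacng7* were lower with C-3BO on chow (-1.71, -1.78 and -0.82, edgeR adjusted p = 0.0455, 0.0311 and 0.0273). *Cacng1* and the calcium channel pore *Cacna1s* belong to skeletal muscle, whose markers summed to 745 to 9413 CPM in chow control and 417 to 3558 CPM in chow C-3BO mice, and the part of muscle was not tested. Among the relatives of the KATP pores, *Kcnj15* was lower with C-3BO on both diets and with CL on chow (-0.88, -1.24 and -0.78) and *Kcnj2* with C-3BO on both diets (-1.26 and -1.59).

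Across the 40 libraries, the genes whose log2 CPM followed a member most closely were ranked by Pearson's r, as a description over libraries that share groups and depth. For *Hcn2* they were the thrombin receptor gene *F2r* (r = 0.879), *Pgap2* (0.870), *BC028528* (0.862), *Bckdhb* of branched-chain keto acid breakdown (0.861) and *Ppif*, the mitochondrial cyclophilin D (0.848). *Abcc8* was followed by *Psph* (0.811), *Pdhx* of the pyruvate dehydrogenase complex (0.810), *Mmaa* (0.806), *Ndufaf1*, an assembly factor of respiratory complex I (0.802), and *Atp5a1* of ATP synthase (0.802). For *Cacng5* no ranking is given, because it passed the expression filter through HFD C-3BO mice alone and r would mainly follow that group. *Kcnj8* was followed by *Myct1* (0.801) and the endothelial transcription factor gene *Sox7* (0.791), and *Kcnj11* by *Rab3a* (0.802) and *Atp1b1* (0.781). *Kcnk3* came closest to *Dhx34* (0.826) and *Stt3b* (0.806), *Abcc9* to *Colgalt2* (0.781) and *Pde4b* (0.775), and *Hcn4* to *Cda* (0.645) and *Stk32c* (0.633). Without the 12 libraries of lowest total, none of the 5 genes stayed among the 5 closest to *Hcn2*, and 2 did for *Abcc8*.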

How the data were processed

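BAT RNA from 40 mice was made into libraries with a poly(A)-selecting TruSeq kit. The deposited values are raw read counts per gene, made by the authors with STAR and HOMER on mm9 per the labels. Versions, and whether the counting used strand, are not given in the sources used here. Library totals were 849126 to 15260516 counts, so that 3 counts, the smallest level taken as detectable, correspond to 0.206 to 3.01 CPM.

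Genes were kept by filterByExpr of edgeR (minimum count 10), which left 13277 of 20295. All 40 libraries entered 1 quasi-likelihood fit over the 8 groups with TMM factors (edgeR 4.0.16, R 4.3.3), and p-values were adjusted by Benjamini-Hochberg over all tested genes, with 0.05 as the threshold. CPM use library sizes corrected by the TMM factors, and RPKM divide CPM by the exon length of the table in kilobases. *Hcn3* and the ratios of subunits, the latter with a pseudocount of 0.5 counts, were compared by exact permutation tests (scipy 1.17.1). The members and lists were chosen with earlier results of these data known. Other channel genes were named from up to 3 per list and treatment comparison with the lowest adjusted p. Alternatives were library totals alone, RLE factors, no filter, at least 10 counts in every library, replicate number as a block, the libraries of a comparison alone, leaving out each library, and DESeq2 1.42.0. The main fit did not pair samples by replicate number. Each library was taken as 1 mouse, since the study's methods count animals per group. The labels do not state this for each library.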

Additional observations from a re-analysis of the deposited data

Results flagged for a closer look

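In 7 of 68 sets of 5 libraries, 1 library stood apart from the other 4 by a gap of more than 0.71 of the whole range, where chance gives about 1 in 20. *Abcc8* was at 7.61 CPM in chow control replicate 3 against 3.55 CPM in the next library. *Kcnj8* was at 50.9 CPM in HFD control replicate 3 against 66.5 CPM in the next. *Kcnj11* was at 45.5 CPM in chow C-3BO replicate 5 against 31.7 CPM, and *Abcc9* at 95.3 CPM in HFD saline replicate 3 against 75.3 CPM. The remaining 3 rest on few counts. *Hcn3* was at 0.666 CPM in chow control replicate 5 from 5 counts and at 0.119 CPM in chow C-3BO replicate 3 from 1 count, and *Cacng5* was at 0.143 CPM in chow C-3BO replicate 5 from 1 count.

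The effect of CL on *Hcn2* differed between the diets by 2.64 on the log2 scale in a test of the difference itself (edgeR adjusted p = 0.0120), and all 5 CL mice lay above all 5 saline mice on either diet.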

How the results depend on the processing

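The CL effect on *Hcn2* kept its direction on both diets in each setting that tested it, and its difference between diets ranged from 2.45 to 2.93 when single libraries were left out. With at least 10 counts in every library, *Hcn2* was no longer tested, and 0 members were called for either CL comparison or the diet dependence of CL and 2 for HFD in CL mice. With only the libraries of a comparison, 1 member was called for CL on chow, where *Hcn2* had 1.24 (edgeR adjusted p = 0.103), and 1 for HFD in saline mice. With replicate number as a block, 2 members were called for CL on HFD and 0 for its diet dependence, where *Hcn2* had 2.58 (edgeR adjusted p = 0.0506). Library totals alone gave 1 call for C-3BO on HFD, no filter gave 1 for HFD in C-3BO mice, and leaving out HFD C-3BO replicates 4 and 5 gave 0 there. Leaving out single libraries gave 0 to 1 calls for C-3BO on chow, 1 to 2 for CL on HFD, 0 to 1 for its diet dependence, 0 to 3, 1 to 2, 2 to 4 and 3 to 4 for HFD in C-3BO, saline, control and CL mice, and 0 to 4 for the ratios of KATP pores. The cause was not tested.

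Values near 0 changed sign. For *Abcc9*, C-3BO on chow (0.00) became -0.18 under library totals alone, -0.00605 under RLE factors, -0.0178 with at least 10 counts in every library, -0.0252 with the block and -0.00572 with DESeq2, and ranged from -0.0808 to 0.19 without single libraries. C-3BO on HFD became -0.0361 under library totals alone. CL on chow (0.01) became -0.14 under library totals alone, -0.00423 under RLE factors, -0.0114 without a filter, -0.00918 with at least 10 counts, -0.00553 with only its libraries and -0.00458 with DESeq2, and ranged from -0.0772 to 0.11. For *Kcnj8*, library totals alone gave -0.14 for C-3BO on chow and -0.0233 for CL on chow, and the former ranged from -0.0227 to 0.16 without single libraries. For HFD, *Hcn4* became 0.0373 in control mice with library totals alone (-0.36 to 0.15 without single libraries) and 0.0218 in C-3BO mice with the block (-0.71 to 0.66), and *Kcnj11* in C-3BO mice became 0.0764 with library totals alone (-0.21 to 0.0368). Without single libraries, the diet dependence of C-3BO ranged from -0.60 to 0.77 for *Hcn4*, -0.16 to 0.0204 for *Kcnk3* and -0.0402 to 0.22 for *Abcc9*, that of CL from -0.0841 to 0.16 for *Kcnk3* and -0.55 to 0.0551 for *Abcc8*. CL on HFD ranged from -0.39 to 0.36 for *Hcn4*, HFD in saline mice from -0.0249 to 0.18 for *Abcc9*, and the pore ratio there from -0.48 to 0.00895.

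Library totals alone moved the median of all tested genes to -0.23 for C-3BO on chow and 0.21 for HFD in C-3BO mice, and the share of calls that were higher from 49.8% to 20.2% and from 52.6% to 81.7%. Mean correlations of same-numbered deviations ran from -0.136 to 0.172. The highest was that of C-3BO against control on chow, where 5 of 120 possible pairings gave a mean at least as large. For C-3BO against control on HFD (0.0598) 10 of 120 did, and in each other comparison 23 or more did. The labels give replicate numbers and no pairing. *Hcn3*, *Cacng5* and *Hcn4* are limited by counts.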
